A study of Rattus norvegicus with 12 samples.

Results

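Cntn1, Lrrn3, Ctxn3, Pcp4, Shisa3, Pou3f3 and Sorcs3 are genes known mainly from neurons that were found expressed in rat epiphyseal cartilage. These 7 genes, of 14300 genes with a transcript cluster of their own symbol, were chosen by their high values in articular cartilage below the surface (intermediate/deep zone, IDZ) or in the uppermost growth plate (resting zone, RZ) on the same arrays that are described here. Their levels and the differences between zones are therefore given as a description, with standard errors and without p-values. Each of the 7 genes had 1 transcript cluster on the array, so all members were measured and none was removed by a filter.

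The data are 12 arrays of the Affymetrix Rat Gene 1.0 ST type, 4 each of RZ, IDZ and the superficial zone (SZ), which is the surface layer of the articular cartilage. All tissue was microdissected from the proximal tibial epiphysis of 10-day-old Sprague-Dawley rats that had received no treatment named in the labels. Each RZ and IDZ sample pooled the tissue of 2 animals, and RZ and IDZ samples of the same replicate number came from the same 2 animals. Each SZ sample came from 1 animal, one of 4 that also gave RZ and IDZ tissue. The zones are tissue layers cut by hand and not purified cells, so a lower value in bulk RNA can mean fewer cells that express the gene or less RNA per cell, and these cannot be told apart. Values are log2 expression values, so that a difference of 1 is 2-fold, and precision is limited by having 4 arrays per zone.

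The epiphysis of a young long bone is a mass of cartilage. Its outer face forms the articular cartilage, where the flat cells of SZ make lubricin at the joint surface and the rounder cells of IDZ lie below them. RZ is the uppermost layer of the growth plate, the cartilage that lengthens the bone, and holds slowly dividing chondrocytes. Neurons use cell adhesion proteins to guide and bundle axons, calmodulin-binding proteins to shape calcium signals, sorting receptors to traffic growth factor and glutamate receptors, and POU-domain transcription factors to specify cell types. Several such genes are also used outside the nervous system, for example Pou3f3 and Ctxn3 in the kidney. Articular cartilage is regarded as free of nerves.

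The zone labels were checked first. Prg4, which encodes lubricin, averaged 5.68 ± 0.50 in RZ, 10.31 ± 0.97 in IDZ and 12.78 ± 0.19 in SZ (SD, n = 4 each). Its values on the IDZ arrays were 10.61, 10.80, 10.95 and 8.86, so that IDZ replicate 4 lay below the other IDZ arrays. Col10a1, the collagen of hypertrophic chondrocytes, averaged 8.30 ± 0.45 in RZ, 7.81 ± 0.24 in IDZ and 6.99 ± 0.38 in SZ. Array medians over 27342 clusters lay between 6.76 and 6.90, and SZ replicate 4 had the narrowest spread of values, with an interquartile range of 2.24 against 2.50 to 2.91 on the other arrays. As a guide to dim signal, 1268 clusters of olfactory and vomeronasal receptors, which cartilage is not known to use, had 95th percentiles of 6.30 in RZ, 6.46 in IDZ and 6.36 in SZ.

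Both RZ and IDZ had higher means than SZ for 6 of the 7 genes, whereas Sorcs3 was higher in IDZ but not in RZ. Cntn1, Lrrn3, Ctxn3, Shisa3 and Pou3f3 had their highest mean in RZ, their middle mean in IDZ and their lowest mean in SZ. Pcp4 was highest in IDZ, then RZ, then SZ. Sorcs3 was highest in IDZ, then SZ, and lowest in RZ, where its level was within the range of the receptor clusters. The 12 values of each gene, with the mean and SD of each zone, are shown in the plot of values by array.

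**Figure D1:**
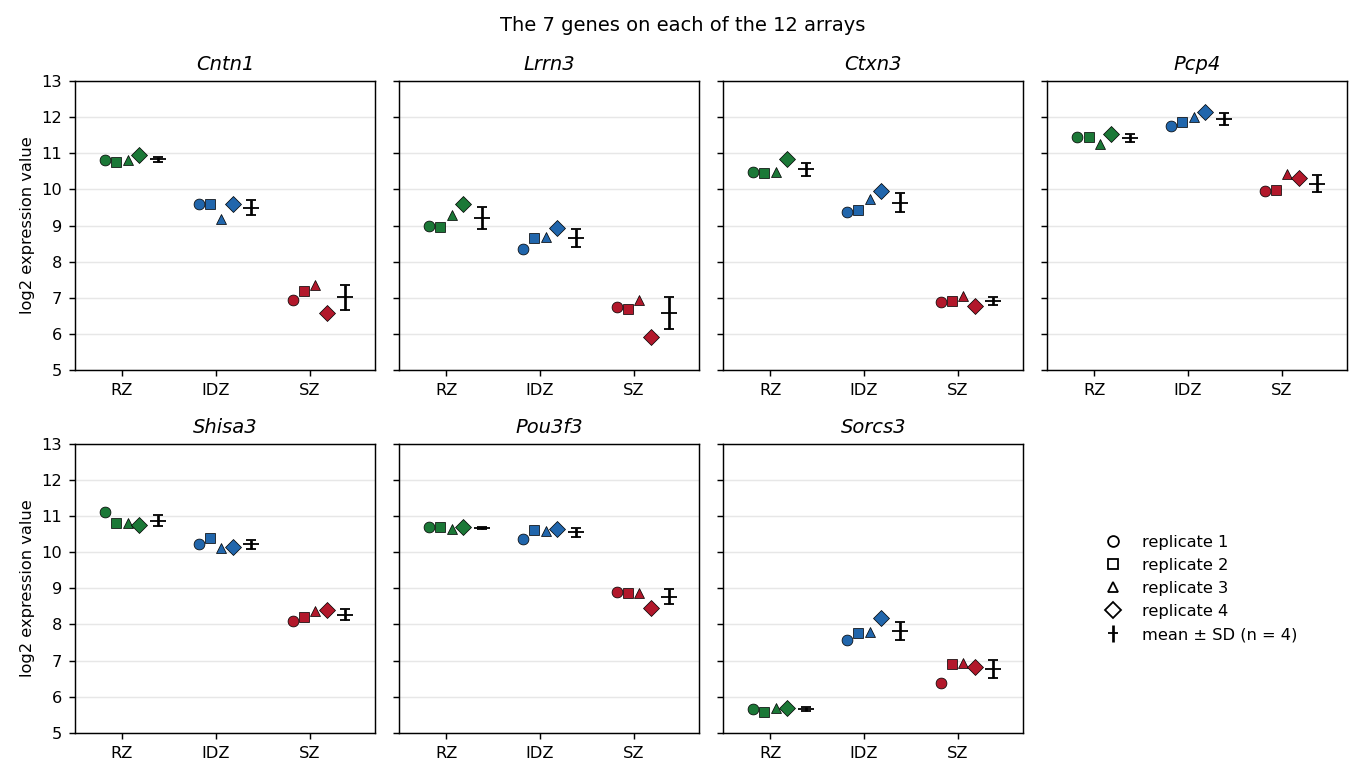
Log2 expression value (vertical axis) of the 7 genes on each of the 12 arrays, by zone (horizontal axis), with 1 symbol per replicate number and the mean ± SD of 4 arrays beside each zone. Sorcs3 lies lowest in RZ, at 5.58 to 5.69 on the 4 arrays, and the other 6 genes lie lowest in SZ.

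Sequence around a transcription start was given by RefSeq (GRCr8) for 6 of the 7 genes, as 250 bases before to 50 bases after the start, and Pou3f3 was not matched. The windows of Cntn1 and Ctxn3 are shown because these 2 genes had the most similar profiles over the arrays among the 7, and those of Pcp4 and Sorcs3 because their zone orders differed from those of the others. All are on the + strand, at chr7:125252060-125252359 for Cntn1, chr18:53129255-53129554 for Ctxn3, chr11:49269936-49270235 for Pcp4 and chr1:257040192-257040491 for Sorcs3. The starts of the Ctxn3 and Sorcs3 windows are those of the annotated genes. The Cntn1 start lies 109672 bases and the Pcp4 start 41001 bases inside the annotated gene, and the arrays do not tell which start the cartilage transcripts use. Capitals mark a CCAAT box, which reads ATTGG on the strand shown, or a GC box (GGGCGG).
Cntn1: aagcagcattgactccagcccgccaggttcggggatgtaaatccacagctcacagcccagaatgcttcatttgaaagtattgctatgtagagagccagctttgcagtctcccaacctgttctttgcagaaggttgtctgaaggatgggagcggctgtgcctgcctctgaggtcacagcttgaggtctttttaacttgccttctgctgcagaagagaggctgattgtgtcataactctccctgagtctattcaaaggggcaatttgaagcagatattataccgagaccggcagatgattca
Ctxn3: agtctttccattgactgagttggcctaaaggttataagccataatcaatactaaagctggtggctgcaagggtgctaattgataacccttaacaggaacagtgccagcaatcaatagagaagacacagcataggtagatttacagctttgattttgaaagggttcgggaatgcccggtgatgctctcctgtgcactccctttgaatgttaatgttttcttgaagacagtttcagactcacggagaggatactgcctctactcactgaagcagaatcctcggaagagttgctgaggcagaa
Pcp4: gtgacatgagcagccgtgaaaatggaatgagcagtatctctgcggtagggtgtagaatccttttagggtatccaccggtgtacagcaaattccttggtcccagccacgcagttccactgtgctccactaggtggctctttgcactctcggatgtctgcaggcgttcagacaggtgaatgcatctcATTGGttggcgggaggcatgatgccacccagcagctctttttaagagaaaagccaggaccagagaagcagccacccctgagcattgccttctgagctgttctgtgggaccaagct
Sorcs3: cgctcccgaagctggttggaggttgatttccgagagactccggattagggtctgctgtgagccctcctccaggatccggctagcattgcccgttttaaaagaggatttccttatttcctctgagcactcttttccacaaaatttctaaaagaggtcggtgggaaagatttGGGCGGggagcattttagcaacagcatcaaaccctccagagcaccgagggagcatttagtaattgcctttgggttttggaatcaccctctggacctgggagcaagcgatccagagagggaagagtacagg

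The windows of Cntn1 and Ctxn3, the 2 genes with the most similar profiles, held none of the motifs searched, so sharing could not be compared. Searches on both strands covered the TATAAA box, then the letters CCAAT, the octamer ATGCAAAT of POU factors, the SOX motif ACAAAG, the TTCAGCACC site of the neuronal repressor REST, the cyclic AMP response element TGACGTCA and the GC box GGGCGG. The CCAAT letters occurred in the Lrrn3 and Pcp4 windows and in 37.5% of all 33469 RefSeq windows, and GGGCGG occurred in the Shisa3 and Sorcs3 windows and in 33.1% of all windows. The other motifs were found in none of the 6 windows, and their shares of all windows were 14.2% for TATAAA, 1.78% for ATGCAAAT, 18.8% for ACAAAG, 0.356% for TTCAGCACC and 1.83% for TGACGTCA. A match in these letters is a description and not a binding site. The Shisa3 window stood apart in base composition, with 33 CpG dinucleotides and 73.3% G and C, against 4 to 10 CpG in the other 5 windows and a median of 7 CpG and 51.7% G and C over all windows.

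Cntn1 encodes contactin-1, an immunoglobulin-type adhesion protein anchored to the outer face of the axon membrane, which in nerve joins Caspr (Cntnap1) and neurofascin (Nfasc) beside the node of Ranvier. Its values were 10.80, 10.76, 10.82 and 10.94 in RZ, 9.59, 9.60, 9.18 and 9.61 in IDZ, and 6.94, 7.20, 7.35 and 6.57 in SZ. The zones did not overlap, and the 4 RZ arrays lay within a narrow range. Cntn1 was 2.52-fold higher in RZ than in IDZ (log2 difference 1.33, SE 0.15), 14.1-fold higher in RZ than in SZ (3.82, SE 0.15) and 5.58-fold higher in IDZ than in SZ (2.48, SE 0.15). It had the widest range between zones of the 7 genes. The RZ minus IDZ difference was 1.21, 1.15, 1.64 and 1.33 in the 4 pairs of samples from the same animals.

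None of the measured relatives of Cntn1 was at least 2-fold higher in RZ or IDZ than in SZ. Cntn2, a contactin of developing axons, averaged 6.20 ± 0.22 in RZ, 7.23 ± 0.11 in IDZ and 7.38 ± 0.34 in SZ (SD, n = 4 each), a log2 difference of -1.03 for RZ minus IDZ (limma, adjusted p = 0.000596) and -1.18 for RZ minus SZ (limma, adjusted p = 3.46e-05). The call for RZ minus IDZ was lost when array medians were set equal and without RZ replicate 1, RZ replicate 2 or IDZ replicate 3. Its RZ level was within the range of the receptor clusters. Cntn3, Cntn4, Cntn5 and Cntn6 lay within that range in all 3 zones, with means between 4.22 and 5.66. Such dim levels cannot show whether these genes share the pattern of Cntn1. Cntn5 exceeded SZ by 0.31 in RZ (limma, adjusted p = 0.0309) and by 0.32 in IDZ (limma, adjusted p = 0.0228). Of the proteins that bind contactin-1 in nerve, Cntnap1 averaged 6.36 in RZ, 6.27 in IDZ and 6.34 in SZ, near the upper end of the receptor range. Nfasc averaged 6.46 ± 0.12 in RZ, 7.78 ± 0.13 in IDZ and 7.16 ± 0.12 in SZ, and fell in RZ relative to IDZ (log2 difference -1.31, limma, adjusted p = 7.37e-07), the opposite direction to Cntn1. Notch1, a receptor for which contactin-1 has been described as a ligand, averaged 7.54 ± 0.19 in RZ and 8.55 ± 0.21 in SZ, a log2 difference of -1.01 (limma, adjusted p = 1.12e-05). This Notch1 difference was only just past the 2-fold limit. Scn2b, the sodium channel subunit that contactins bind, was lower in RZ than in SZ by a log2 difference of -1.22 (limma, adjusted p = 5.15e-07).

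Lrrn3 encodes a transmembrane protein with leucine-rich repeats that is expressed in the nervous system. Its values were 8.99, 8.96, 9.30 and 9.59 in RZ, 8.34, 8.65, 8.69 and 8.94 in IDZ, and 6.74, 6.71, 6.94 and 5.93 in SZ. The lowest RZ array was only 0.01 above the highest IDZ array, whereas all RZ and IDZ arrays were far above those of SZ. The RZ minus IDZ difference was 0.55 (SE 0.20) and did not reach 2-fold. Lrrn3 was 6.20-fold higher in RZ than in SZ (log2 difference 2.63, SE 0.20) and 4.23-fold higher in IDZ than in SZ (2.08, SE 0.20). SZ replicate 4 was the lowest SZ array, and without it these differences were 2.41 and 1.86. Lrrn1, the relative of Lrrn3 with a cluster of its own, averaged 6.70 ± 0.24 in RZ, 6.10 ± 0.32 in IDZ and 6.90 ± 0.34 in SZ, and no difference in it reached 2-fold.

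Ctxn3 encodes a cortexin, a small protein that crosses the membrane once and is known from brain and kidney. Its values were 10.48, 10.46, 10.47 and 10.84 in RZ, 9.39, 9.45, 9.75 and 9.96 in IDZ, and 6.89, 6.92, 7.05 and 6.78 in SZ. The 4 SZ arrays lay close together and far below the others. Ctxn3 was 12.6-fold higher in RZ than in SZ (log2 difference 3.65, SE 0.13) and 6.61-fold higher in IDZ than in SZ (2.73, SE 0.13), the largest IDZ minus SZ difference among the 7 genes. RZ exceeded IDZ by 0.93 (SE 0.13), or 1.90-fold, and by 1.09, 1.02, 0.72 and 0.87 in the 4 pairs of the same animals. Ctxn1, the cortexin of cerebral cortex, averaged 7.48 in RZ, 7.54 in IDZ and 7.59 in SZ, with differences of at most 0.11 in size.

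Pcp4 encodes PEP-19, a small protein of Purkinje cells that binds calmodulin and alters how fast it takes up and releases calcium. Its values were 11.44, 11.46, 11.26 and 11.53 in RZ, 11.76, 11.87, 11.99 and 12.14 in IDZ, and 9.95, 9.97, 10.42 and 10.32 in SZ. Unlike the other genes apart from Sorcs3, Pcp4 was lower in RZ than in IDZ on every array. The RZ minus IDZ difference was -0.52 (SE 0.12), and it was negative in all 4 pairs of the same animals, between -0.73 and -0.32. Pcp4 was 2.40-fold higher in RZ than in SZ (log2 difference 1.26, SE 0.12) and 3.42-fold higher in IDZ than in SZ (1.78, SE 0.12). Pcp4l1, its close relative, averaged 5.75 ± 0.19 in RZ, 5.88 ± 0.04 in IDZ and 6.94 ± 0.18 in SZ. Pcp4l1 therefore went the other way, by -1.19 for RZ minus SZ (limma, adjusted p = 1.23e-06) and -1.05 for IDZ minus SZ (limma, adjusted p = 5.64e-06), and its RZ and IDZ levels were within the receptor range. Among calmodulin genes and targets, Calm2 and Calm3 had no difference that reached 2-fold, and Camk2d, a calmodulin-dependent kinase, was lower in RZ than in SZ by -1.17 (limma, adjusted p = 1.45e-05).

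Shisa3 belongs to a family whose founding member in the frog Xenopus holds Frizzled and fibroblast growth factor receptors inside the cell and so lowers the response to Wnt and FGF. Its values were 11.10, 10.82, 10.80 and 10.76 in RZ, 10.24, 10.39, 10.11 and 10.15 in IDZ, and 8.10, 8.22, 8.36 and 8.41 in SZ. All 3 zones were separate and the spread within each was small. Shisa3 was 1.57-fold higher in RZ than in IDZ (log2 difference 0.65, SE 0.11), 6.05-fold higher in RZ than in SZ (2.60, SE 0.11) and 3.86-fold higher in IDZ than in SZ (1.95, SE 0.11). RZ exceeded IDZ in all 4 pairs of the same animals, by 0.43 to 0.86.

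Of the Shisa relatives, Shisa4 had the same order of zones. It averaged 10.80 ± 0.13 in RZ, 10.42 ± 0.06 in IDZ and 8.96 ± 0.11 in SZ, with log2 differences of 1.84 for RZ minus SZ (limma, adjusted p = 1.52e-09) and 1.46 for IDZ minus SZ (limma, adjusted p = 3.67e-08). Shisa5 and Shisa7 differed by less than 2-fold between all zones. The receptors on which Shisa proteins act in the frog went in different directions. Fgfr3, the FGF receptor that restrains growth plate chondrocytes, averaged 11.18 ± 0.12 in RZ, 10.91 ± 0.05 in IDZ and 9.14 ± 0.20 in SZ, with log2 differences of 2.04 for RZ minus SZ (limma, adjusted p = 1.69e-09) and 1.77 for IDZ minus SZ (limma, adjusted p = 2.06e-08). Fzd8, a Wnt receptor, averaged 8.50 ± 0.10 in RZ, 8.97 ± 0.10 in IDZ and 10.68 ± 0.21 in SZ, with log2 differences of -2.18 (limma, adjusted p = 1.19e-09) and -1.71 (limma, adjusted p = 3.24e-08) against SZ. Fgfr1, Fgfr2, Fzd1 and Fzd2 differed by less than 2-fold between all zones.

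Pou3f3 encodes Brn1, a POU-domain transcription factor of cortical neurons and of the kidney tubule. Its values were 10.70, 10.69, 10.64 and 10.69 in RZ, 10.36, 10.63, 10.60 and 10.63 in IDZ, and 8.89, 8.86, 8.88 and 8.46 in SZ. RZ and IDZ lay nearly at the same level, with the lowest RZ array 0.007 above the highest IDZ array. Their difference of 0.12 (SE 0.11) was no larger than the spread of the IDZ arrays (SD 0.13), so these neighbours in the order were not separated beyond their spread. In 3 of the 4 pairs of the same animals the difference was 0.05 or 0.06, and it was 0.34 in the pair with IDZ replicate 1. Pou3f3 was 3.75-fold higher in RZ than in SZ (log2 difference 1.91, SE 0.11) and 3.44-fold higher in IDZ than in SZ (1.78, SE 0.11).

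The other genes of the same POU class showed no such difference. Pou3f1 and Pou3f4 lay within the receptor range in all zones, and Pou3f2 averaged 7.36 ± 0.25 in RZ, 7.19 ± 0.18 in IDZ and 7.09 ± 0.48 in SZ, with no difference that reached 2-fold. Of the SOX factors that pair with POU factors in neural cells, Sox11 averaged 9.94 ± 0.18 in RZ, 9.01 ± 0.09 in IDZ and 8.15 ± 0.14 in SZ, and RZ exceeded SZ by 1.80 (limma, adjusted p = 7.2e-09). Sox2 averaged 7.32 in RZ, 7.42 in IDZ and 7.13 in SZ, and no difference reached 2-fold.

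Sorcs3 encodes a sorting receptor with a Vps10p domain, related to sortilin and known from hippocampal synapses. Its values were 5.65, 5.58, 5.69 and 5.68 in RZ, 7.57, 7.77, 7.80 and 8.17 in IDZ, and 6.39, 6.92, 6.94 and 6.83 in SZ. IDZ was the highest zone and RZ the lowest, with no overlap between any pair of zones. Sorcs3 was 4.52-fold lower in RZ than in IDZ (log2 difference -2.18, SE 0.14), 2.17-fold lower in RZ than in SZ (-1.12, SE 0.14) and 2.08-fold higher in IDZ than in SZ (1.06, SE 0.14). Since the RZ mean of 5.65 ± 0.05 lay within the receptor range, the array gives no evidence of a level above dim signal there. RZ was below IDZ in all 4 pairs of the same animals, by -1.92, -2.20, -2.11 and -2.49. The IDZ minus SZ difference lay near the 2-fold limit and was between 0.93 and 1.15 when each array was left out in turn, falling under 2-fold without SZ replicate 1 (0.93) and without IDZ replicate 4 (0.94). Sorcs2 was likewise lower in RZ than in SZ but, unlike Sorcs3, also lower in IDZ than in SZ, with means of 6.80 ± 0.18 in RZ, 7.26 ± 0.13 in IDZ and 8.73 ± 0.23 in SZ, and log2 differences of -1.93 for RZ minus SZ (limma, adjusted p = 1.73e-08) and -1.48 for IDZ minus SZ (limma, adjusted p = 5e-07). Sort1, which encodes sortilin, averaged 9.92 ± 0.28 in RZ, 9.25 ± 0.17 in IDZ and 9.25 ± 0.30 in SZ, under 2-fold in every comparison.

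As a group, the 7 genes passed the same limits that were used for all clusters (adjusted p under 0.05 and at least 2-fold) as follows. Because the genes were selected on these arrays, the counts are a description and nothing is read from them. For RZ minus IDZ, Cntn1 passed as higher and Sorcs3 as lower, beside 0.399% of all 27342 clusters called higher and 0.519% called lower. For RZ minus SZ, 6 genes passed as higher and Sorcs3 as lower, beside 1.35% of all clusters called higher and 3.19% called lower. For IDZ minus SZ, all 7 passed as higher, beside 0.977% of all clusters called higher and 2.96% called lower. The arrays of the zones compared did not overlap for any of the 7 genes. Over all clusters, the arrays did not overlap for 11.1% higher and 9.08% lower in RZ minus IDZ, 12.3% higher and 9.61% lower in RZ minus SZ, and 12.1% higher and 10.2% lower in IDZ minus SZ. The medians of the log2 differences were 0.55 for RZ minus IDZ, 2.60 for RZ minus SZ and 1.95 for IDZ minus SZ, against -0.03, 0.03 and 0.08 over all clusters. Comparisons that share a zone share its arrays, so they are not independent of each other.

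**Figure D2:**
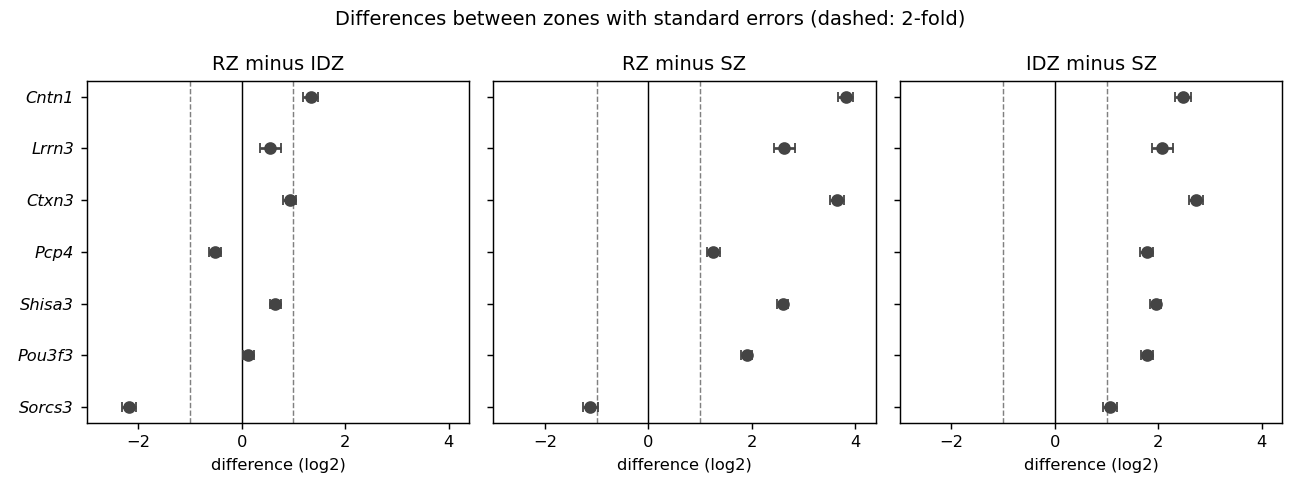
Log2 difference between zones (horizontal axis) of each of the 7 genes (rows), with bars of 1 standard error from limma, for RZ minus IDZ, RZ minus SZ and IDZ minus SZ. RZ minus IDZ runs from -2.18 for Sorcs3 to 1.33 for Cntn1, and all 7 points of IDZ minus SZ lie at 1.06 or higher.

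Between SZ and RZ, the 5 genes with the highest level in RZ placed IDZ at different points. On the log2 scale, the IDZ mean stood at 65.0% of the way from the SZ mean to the RZ mean for Cntn1, 74.6% for Ctxn3, 75.1% for Shisa3, 79.0% for Lrrn3 and 93.5% for Pou3f3. IDZ was thus nearer to RZ than to SZ for each of these genes. Spread within zones also varied among the 7 genes. The median SD over the 4 arrays was 0.12 in RZ, 0.21 in IDZ and 0.24 in SZ, against medians over all clusters of 0.12, 0.12 and 0.22. In RZ the SD was 0.03 for Pou3f3 and 0.30 for Lrrn3.

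Single arrays stood out for several genes at once. IDZ replicate 4 was the highest IDZ array for 6 of the 7 genes, and RZ replicate 4, from the same animals, was the highest RZ array for 4 of 7. SZ replicate 3 was the highest SZ array for 5 of 7 and SZ replicate 4 the lowest for 4 of 7. IDZ replicate 4 was also the IDZ array with the lowest mean over 14 genes of fibrous connective tissue, at 8.66 against 8.84 to 9.12, over 9 endothelial genes, at 6.59 against 6.92 to 7.06, and over 7 genes of the joint surface, at 7.52 against 8.03 to 8.09. Whether these tissue shares have a part in the values of the 7 genes on that array was not tested.

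Genes of fibrous tissue, endothelium and macrophages were lower in RZ and IDZ than in SZ. The lists of marker genes were assembled with earlier results of these arrays known. The counts are of genes called at an adjusted p under 0.05 and at least 2-fold. Over all clusters, 1.35% were called higher and 3.19% lower for RZ minus SZ, and 0.977% and 2.96% for IDZ minus SZ. For RZ minus IDZ the shares were 0.399% and 0.519%. Of 14 genes of fibrous connective tissue, 13 were lower in RZ than in SZ and 12 were lower in IDZ than in SZ, with array means of 7.51 to 7.95 in RZ, 8.66 to 9.12 in IDZ and 10.90 to 11.38 in SZ. Of 9 endothelial genes, 8 were lower in RZ and 7 in IDZ than in SZ, and of 12 macrophage genes 11 were lower in each, relative to SZ. Array means of endothelial genes were 6.41 to 6.67 in RZ, 6.59 to 7.06 in IDZ and 8.76 to 9.33 in SZ. Of 15 cartilage genes, 4 were higher in RZ and 7 in IDZ than in SZ, with median log2 differences of 0.94 for RZ minus SZ and 0.93 for IDZ minus SZ. By adjusted p alone, 13 cartilage genes were higher in each of these comparisons, and 1 was lower for RZ minus SZ. Over all 27342 clusters, that rule gave 3026 higher and 2747 lower for RZ minus SZ, and 3064 higher and 3226 lower for IDZ minus SZ. All of the 7 genes but Sorcs3 were lowest in SZ, as was the mean of the cartilage list. This was opposite to the fibrous, endothelial and macrophage lists, which were highest in SZ. Sorcs3 was lowest in RZ. Whether these tissue shares have a part in the differences from SZ was not tested. Lists of muscle, red blood cell and bone genes overlapped between zones in their array means. Their array means were 7.00 to 7.22 in RZ, 7.06 to 7.27 in IDZ and 6.92 to 7.62 in SZ for 9 muscle genes, and 7.68 to 9.87 in RZ, 7.62 to 9.004 in IDZ and 7.28 to 9.54 in SZ for 5 red blood cell genes. For 8 genes of bone and hypertrophic cartilage they were 7.44 to 8.32 in RZ, 7.20 to 7.52 in IDZ and 7.44 to 8.34 in SZ. Single genes of these lists did differ. Of the bone genes, 2 were called higher for RZ minus IDZ, 2 higher and 1 lower for RZ minus SZ, and 2 lower for IDZ minus SZ. Among muscle genes, 1 was called higher for RZ minus SZ, and 1 higher and 1 lower for IDZ minus SZ. No red blood cell gene was called.

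Of 38 measured genes of neuron identity, axon and synapse, 36 were called in none of the 3 comparisons. Calls were 1 higher for RZ minus IDZ, 1 lower for RZ minus SZ and 2 lower for IDZ minus SZ. Over all clusters, the shares called were 0.399% higher, 3.19% lower and 2.96% lower in the same order, and nothing is read from so few calls. The median log2 differences of the 38 genes were -0.05 for RZ minus IDZ, 0.00 for RZ minus SZ and 0.07 for IDZ minus SZ. Their means per array were 6.43 to 6.52 in RZ, 6.47 to 6.52 in IDZ and 6.39 to 6.65 in SZ. Of the 38, 19 in RZ, 21 in IDZ and 18 in SZ lay within the receptor range, among them Snap25, Stmn2, Syt1, Elavl3 and the neurofilament genes Nefl, Nefm and Nefh in every zone. Array medians over all clusters, at 6.76 to 6.90, were themselves not far above that range. The share of all clusters within it was not counted, for this list or for those that follow. Snap25, a protein of synaptic vesicle fusion, averaged 5.41 in RZ, 5.59 in IDZ and 5.36 in SZ. The rest of the list lay above that range, among them in RZ Thy1 at 10.10, Eno2 at 9.51, Vamp2 at 8.93, Uchl1 at 8.65, Sv2a at 8.03 and Map2 at 7.75, so that the list held both dim and bright genes. Some of these genes, such as Eno2, are also used outside neurons.

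Thy1 and Dcx were the 2 neuron genes called. Thy1, a surface protein of neurons that fibroblasts also carry, averaged 10.10 ± 0.11 in RZ, 9.05 ± 0.09 in IDZ and 10.73 ± 0.18 in SZ, with log2 differences of 1.04 for RZ minus IDZ (limma, adjusted p = 1.15e-05) and -1.67 for IDZ minus SZ (limma, adjusted p = 2.7e-08). Its RZ minus IDZ call was lost with another quantile normalization and without RZ replicate 2. Dcx, a microtubule protein of migrating neurons, averaged 5.85 ± 0.10 in RZ, 6.84 ± 0.30 in IDZ and 7.96 ± 0.36 in SZ, and was lower than SZ in RZ by -2.11 (limma, adjusted p = 1.9e-07) and in IDZ by -1.11 (limma, adjusted p = 0.000161). Without IDZ replicate 3, 1 neuron gene in place of 2 was called for IDZ minus SZ. The direction of Dcx against SZ was opposite to that of 6 of the 7 genes. Several neuron genes passed the adjusted p in the direction of those 6 genes but missed 2-fold. For RZ minus SZ, these included Syt1 with a log2 difference of 0.95 (limma, adjusted p = 0.000117), although its levels were within the receptor range, and Uchl1 with 0.80 (limma, adjusted p = 0.000199). For IDZ minus SZ they included Eno2 with 0.95 (limma, adjusted p = 0.00142), Vsnl1 with 0.95 (limma, adjusted p = 0.00105) and Map2 with 0.79 (limma, adjusted p = 4.71e-05). Other neuron genes passed it in the opposite direction. By adjusted p alone, with the called genes included, 4 were higher and 6 lower for RZ minus SZ, and 3 higher and 6 lower for IDZ minus SZ. Over all 27342 clusters, the same rule gave 3026 higher and 2747 lower for RZ minus SZ. For IDZ minus SZ it gave 3064 higher and 3226 lower. Nothing is read from the neuron counts beside these.

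Genes of sensory and autonomic nerve and of glia were counted in the same way. Over all clusters, 0.399% were called higher for RZ minus IDZ and 1.35% for RZ minus SZ. Of 19 nerve genes, Runx3 alone was called, at 8.48 ± 0.09 in RZ, 7.57 ± 0.10 in IDZ and 6.83 ± 0.10 in SZ (RZ minus SZ 1.65, limma, adjusted p = 3.11e-09). Runx3 is a transcription factor of sensory neurons that chondrocytes also use. Of the 19, 13 in RZ, 14 in IDZ and 13 in SZ lay within the receptor range, including Calca, Tac1 and Trpv1, the usual markers of pain fibres. Of 16 genes of Schwann cells and other glia, Mag and Fa2h were called. Fa2h, which hydroxylates the fatty acids of myelin lipids, averaged 8.08 ± 0.32 in RZ, 5.68 ± 0.15 in IDZ and 5.62 ± 0.27 in SZ, with log2 differences of 2.40 for RZ minus IDZ (limma, adjusted p = 2.26e-07) and 2.45 for RZ minus SZ (limma, adjusted p = 2.11e-08). Mag, an adhesion protein of myelin, averaged 7.98 ± 0.26 in RZ, 6.81 ± 0.17 in IDZ and 6.69 ± 0.22 in SZ, with log2 differences of 1.17 (limma, adjusted p = 8.28e-05) and 1.30 (limma, adjusted p = 4.8e-06) for the same comparisons. Sox10 and Mbp, which define Schwann cells and myelin, had differences of at most 0.24 in size and lay above the receptor range in all zones. Cdh19 lay within that range in all zones. Of the 16 glial genes, 5 in RZ, 8 in IDZ and 5 in SZ lay within it. By adjusted p alone, 2 glial genes were higher and 4 lower for RZ minus SZ, and 3 were lower for IDZ minus SZ. Over all 27342 clusters, that rule gave 3026 higher and 2747 lower for RZ minus SZ, and 3226 lower for IDZ minus SZ. Among the lower glial genes, Erbb3 had a log2 difference of -0.65 for IDZ minus SZ (limma, adjusted p = 0.000522). The mean log2 value per array over the 16 genes, Mag and Fa2h included, was 6.58 to 6.69 in RZ, 6.44 to 6.51 in IDZ and 6.48 to 6.76 in SZ.

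**Figure D3:**
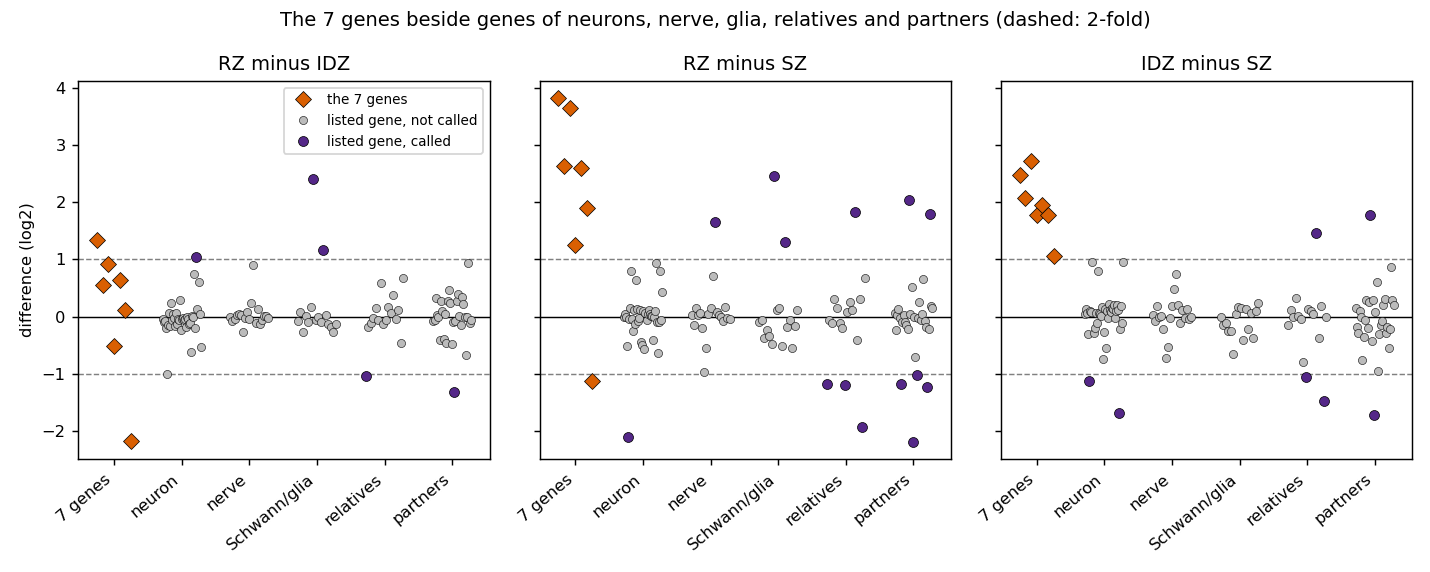
Log2 difference (vertical axis) of the 7 genes (orange) and of each measured gene of 5 lists, namely neuron, sensory and autonomic nerve, Schwann cell and glia, relatives, and binding partners or targets of the 7 (horizontal axis), for RZ minus IDZ, RZ minus SZ and IDZ minus SZ. Purple points are listed genes at an adjusted p under 0.05 and at least 2-fold, which were 2 of 38 neuron genes over the 3 comparisons.

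Families and pathways of the 7 genes were counted next. Of 16 measured relatives, 12 were called in no comparison, and Cntn2, Pcp4l1, Shisa4 and Sorcs2 were called in at least 1. Relatives were called higher in 0 and lower in 1 for RZ minus IDZ (Cntn2), higher in 1 and lower in 3 for RZ minus SZ, and higher in 1 and lower in 2 for IDZ minus SZ. These counts stand beside 0.399% of all clusters called higher and 0.519% lower for RZ minus IDZ. The shares were 1.35% and 3.19% for RZ minus SZ, and 0.977% and 2.96% for IDZ minus SZ. With both directions counted, relatives and partners were called in a larger share than all clusters in each comparison. For RZ minus IDZ this rests on 1 gene of each list, for RZ minus SZ on 4 relatives and 6 partners, and for IDZ minus SZ on 3 and 2. The lists were chosen with earlier results known, and all clusters include 11951 without a symbol. Nothing is therefore read from the larger shares. Shisa4, in both comparisons with SZ, and Sorcs2, for RZ minus SZ, were called in the direction of their counterparts among the 7. Of 30 measured binding partners, ligands and targets, 23 were called in no comparison. The called ones were Nfasc alone, lower, for RZ minus IDZ, then 2 higher (Fgfr3, Sox11) and 4 lower (Fzd8, Scn2b, Camk2d, Notch1) for RZ minus SZ, and 1 higher (Fgfr3) and 1 lower (Fzd8) for IDZ minus SZ. Bdnf and Ntf3, growth factors of the nervous system, lay within the receptor range in all zones.

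REST, the repressor that keeps neuronal genes off in other tissues, was present at like levels in the zones. Rest averaged 8.46 ± 0.07 in RZ, 8.38 ± 0.05 in IDZ and 8.33 ± 0.24 in SZ (SD, n = 4 each), with differences of at most 0.13 in size. Of 8 measured genes of REST and its corepressors, Rcor2 alone was called, at 10.09 ± 0.17 in RZ and 9.09 ± 0.16 in SZ (RZ minus SZ 1.00, limma, adjusted p = 5.48e-06). Over all clusters, 1.35% were called higher for RZ minus SZ.

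The profiles of the 7 genes over the 12 arrays were compared with each other and with all other genes by the root mean square difference of their log2 values after each gene's own mean was subtracted, so that 0 is an identical profile. Among the 21 pairs of the 7 genes, Cntn1 and Ctxn3 were the most alike, at 0.29. Pou3f3 was within 0.35 to 0.36 of Shisa3, Lrrn3 and Pcp4. Sorcs3 lay at 1.01 from Pcp4 and at 1.31 to 2.09 from the other 5. Pcp4 was about as far from Sorcs3 as from Ctxn3 at 0.99 and Cntn1 at 1.11. Zone means set most of this measure, and since all genes share the same 12 arrays it is a description.

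**Figure D4:**
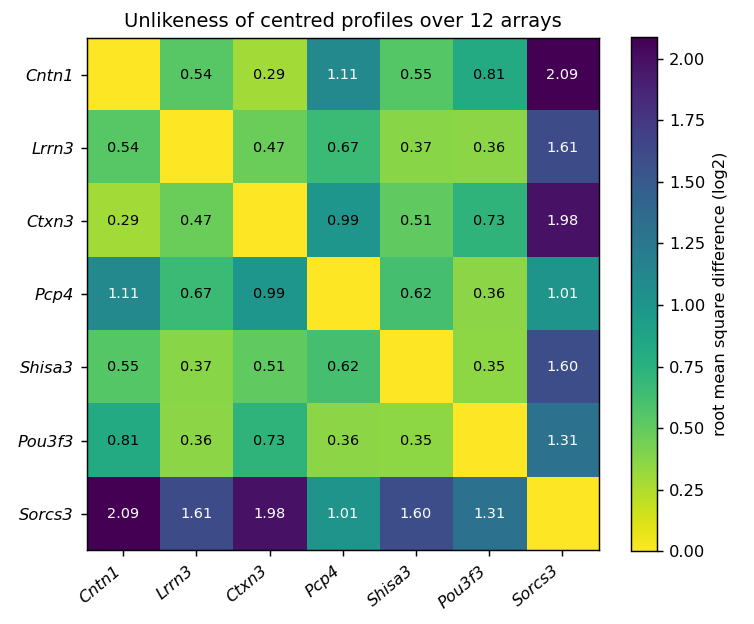
Root mean square difference (log2, colour and printed value) between the centred profiles of each pair of the 7 genes over 12 arrays, where lower means more alike. Cntn1 and Ctxn3 are closest at 0.29, and the Sorcs3 row holds the highest values, up to 2.09.

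The genes whose profiles came nearest to those of the 7, among 14299 others are given as a description. Nearest to Cntn1 were Bmp3, a bone morphogenetic protein, at 0.18, then Ctxn3 and, at 0.32, Efemp1, a fibulin of the extracellular matrix. Bmp3 averaged 11.28 in RZ, 9.84 in IDZ and 7.54 in SZ. Nearest to Ctxn3 were Efemp1 at 0.18, then Cntn1 and, at 0.31, Bmp3. Nearest to Lrrn3 were Usp53 at 0.27, Pygl at 0.29 and Pth1r, the receptor of parathyroid hormone-related protein in the growth plate, at 0.31.

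Nearest to Pcp4 were Frzb, a secreted Wnt antagonist of articular cartilage, at 0.16, and Entpd6 and Enc1, both at 0.18. Nearest to Shisa3 were Flvcr2 at 0.15, Smpd3, a sphingomyelinase needed for cartilage and bone growth in mice, at 0.17 and Mcoln2 at 0.21. Nearest to Pou3f3 were Fgfr3 at 0.15, and Ppp1r3b and Alox12, both at 0.16. Nearest to Sorcs3 were B3galt1 at 0.26, Dlx5, a homeobox factor of skeletal cells, at 0.31 and Pdzrn4 at 0.35, so that its nearest neighbour was farther away than those of Cntn1, Ctxn3, Pcp4, Shisa3 and Pou3f3.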

How the data were processed

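The deposited values are log2 expression values that the authors made from Affymetrix Rat Gene 1.0 ST arrays by robust multi-array average (RMA: background adjustment, quantile normalization, median polish) in Partek 6.6, for 12 arrays of RZ, IDZ and SZ. They were used without further scaling. The annotation gave 1 symbol for 15068 of 27342 clusters, several for 323 and none for 11951. A gene is a symbol at its brightest cluster, which gave 14300 genes. One mean per zone was fitted to all clusters with limma 3.58.1 (R 4.3.3) and moderated variances, p-values of each comparison were adjusted over all clusters (Benjamini-Hochberg), and a gene was called at an adjusted p under 0.05 and at least 2-fold. The fit was tested on simulated data. The members and lists were chosen with earlier results of these data known. Besides the 7 genes, the text names up to 4 called genes per list and comparison, relatives and partners set beside their member, the 3 nearest profiles per gene, and Prg4 and Col10a1. Listed genes named because they did not differ were picked after their values were seen.

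By the labels, RZ and IDZ samples of 1 number share animals. For each such pair, the deviations from the zone mean had a correlation between 0.02 and 0.21, and the consensus correlation within pairs of animals was -0.14. Fits with the animals as a replicate block, other scalings, other variances, no minimum fold, no dim clusters, 2 zones alone and each array left out in turn were alternatives. Python 3.11.15, pandas 2.3.3 and matplotlib 3.10.9 made tables and plots.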

Additional observations from a re-analysis of the deposited data

Results flagged for a closer look

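In each zone, the array farthest from the others was compared with the range of the 4 arrays by Dixon's rule, for the 7 genes in 3 zones. Of 21 groups, 4 held an array beyond its critical value, where chance gives about 1 in 20. Cntn1 on IDZ replicate 3 was the lowest IDZ value, at 9.18. Ctxn3 on RZ replicate 4 was the highest RZ value, at 10.84. Pou3f3 on IDZ replicate 1 was the lowest IDZ value, at 10.36. Pou3f3 on SZ replicate 4 was the lowest SZ value, at 8.46, on the array with the narrowest spread of all values.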

How the results depend on the processing

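All 21 differences of the 7 genes kept their direction under every alternative run, and with each of the 12 arrays left out all moved by less than the spread between replicates. With the animals as a fixed replicate block, Ctxn3 RZ minus SZ was 3.81 against 3.65, and the block changed no call of a listed gene count by over 1.5 times. Without a minimum fold, the calls for RZ minus IDZ, RZ minus SZ and IDZ minus SZ were 5, 10 and 9 neuron genes against 1, 1 and 2, 4, 7 and 6 relatives against 1, 4 and 3, and 6 and 12 partners for RZ minus IDZ and IDZ minus SZ against 1 and 2. Calls over all 27342 clusters rose as well. For RZ minus IDZ they went from 109 to 1080 higher and from 142 to 760 lower. For RZ minus SZ they went from 368 to 3026 higher and from 873 to 2747 lower. For IDZ minus SZ they went from 267 to 3064 higher and from 810 to 3226 lower. Another quantile normalization left 0 neuron genes for RZ minus IDZ, equal 75th percentiles gave 4 for IDZ minus SZ, and equal medians left 0 relatives for RZ minus IDZ, and the cause was not tested. Leaving out single arrays gave 0 to 2, 1 to 2 and 1 to 3 neuron genes. RZ minus IDZ had 0 without RZ replicate 2 and 2 without RZ replicate 3, RZ replicate 4 or IDZ replicate 3, RZ minus SZ had 2 without RZ replicate 2 or SZ replicate 4, and IDZ minus SZ had 1 without IDZ replicate 3. Relatives for RZ minus IDZ numbered 0 to 1, with 0 without RZ replicate 1, RZ replicate 2 or IDZ replicate 3. Partners for RZ minus SZ numbered 5 to 6 with single arrays left out. They numbered 5 against 6 with a random replicate block, equal medians or another quantile normalization. The next brightest cluster gave no value, since each gene has 1 cluster. Levels within the receptor range, such as Sorcs3 in RZ, limit the differences that rest on them.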
